A study of Mus musculus with 5 samples.

Results

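The transcripts described here encode 7 high mobility group (HMG) chromatin proteins, Hmgb1, Hmgb2, Hmgb3, Hmgn1, Hmgn2, Hmgn5 and Hmga1, and the histone variant H2A.Z (H2afz, now also called H2az1). They were chosen by gene symbol, and all 8 were found as rows among the 27998 genes of each of 5 droplet single-cell RNA libraries. The libraries came from bone marrow of Nes-GFP mice, a strain that carries a green fluorescent reporter named for nestin. The 2 aged libraries, replicates 2 and 3, came from mice older than 20 months, and the 3 young libraries, replicates 1 to 3, from mice 10 to 12 weeks old. Cells negative for the leukocyte antigen CD45 and positive for the endothelial adhesion molecule CD31 had been sorted from endosteal preparations, frozen and thawed before 10x encapsulation and 3′ counting. The design text calls them biological replicates without saying whether single animals or pools gave them. In the age tests p-values measure the spread between these libraries. In comparisons of cell classes, which have library as a term, they measure how far class differences vary over the libraries.

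The labelled cell type is endothelial, but of 2116 cells that passed the filters 22 had an endothelial profile, with 9 of 9 endothelial markers, and 1910 belonged to 7 clusters taken as B lineage. B-lineage markers were found in at least 10% of cells for 8 of 8 markers in these clusters and also in a further cluster of 181 cells, which was led by the myeloid genes S100a8, Elane and Prtn3. In young replicate 1, the source of 172 of the 181, the summed level of the 8 markers in dividing cells was 604 UMIs per 1000000 in the myeloid cluster and 7405 in the B-lineage clusters. That library stands apart: 85.1% of its B-lineage cells were classed as dividing, against 12.1% to 14.3% in the other 4, and its cells had a median of 4212.5 unique molecular identifiers (UMIs, 1 per captured transcript molecule), against 1889.5 to 2866.5. The 5 tables hold between 935656 and 5900751 UMIs each, and 5 barcode sequences recurred among the kept cells of different libraries.

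HMG proteins are abundant, non-histone parts of chromatin. HMGB proteins bend DNA through HMG boxes, and HMGB1 and HMGB2 also assist the RAG recombinase when it cuts antigen receptor genes in developing lymphocytes. HMGN proteins bind nucleosomes and compete with linker histone H1, and HMGA1 binds AT-rich DNA through AT hooks. H2A.Z replaces H2A in nucleosomes at promoters, where the SRCAP and EP400 remodelling complexes place it and the chaperone ANP32E removes it. B-cell precursors alternate between bursts of division and resting phases in which receptor genes are rearranged.

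In the GENCODE M21 annotation of GRCm38, Hmgb1 (24068 UMIs over the 2116 kept cells) is at chr5:149046702-149184489 on the minus strand, Hmgb2 (26849 UMIs) at chr8:57511907-57515999 on the plus strand, and H2afz (24453 UMIs) at chr3:137864487-137866922 on the plus strand. Hmgn2 (7492 UMIs) is at chr4:133964738-133968650, Hmgn1 (3066 UMIs) at chr16:96120618-96127729, both on the minus strand, and Hmga1 (1335 UMIs) at chr17:27556497-27563674 on the plus strand. Hmgb3 (1165 UMIs, chrX:71555918-71560676, plus strand) and Hmgn5 (1019 UMIs, chrX:109004534-109013404, minus strand) are both X-linked. Processed copies of several of these genes exist in the genome, and Hmga1b, a near copy of Hmga1 with 176 UMIs, has its own row, so reads shared between copies make these counts uncertain.

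The RefSeq promoter windows of the genes (GRCm38.p6, 250 bases before to 50 after each start) differed in CCAAT boxes, the element bound by the factor NF-Y that is common in promoters of genes of dividing cells. CCAAT was searched on both strands. At least 1 match was present in 7 of the 8 genes and at least 2 in 6. Of all 32851 promoter windows, 37.4% held at least 1 and 11.7% at least 2. Here and below, a gene held a motif if any of its windows did, whereas the percentages count each window by itself. The 4 windows below are the 2 genes whose levels separated dividing from resting cells by the largest folds among those with 3 or more boxes (Hmgb2 with 4 and H2afz with 3), Hmgn1 (2), whose pattern over phases differed from theirs, and Hmga1 (0), which changed least. Hmgb1 and Hmga1 have 2 windows each. Only 1 of those of Hmgb1 holds CCAAT, and of Hmga1 the first is shown. Over the whole set the number of boxes did not follow the fold. Hmgn2 has 1 box and stood at 7.58 times its resting level in S-gated cells (defined below). Hmgb3 has 3 boxes and stood at 3.22 times. Capitals mark CCAAT or its reverse complement ATTGG, and TTTGAA or its reverse complement TTCAAA, a core of the cell cycle homology region.
Hmgb2, chr8:57511593-57511892, plus strand: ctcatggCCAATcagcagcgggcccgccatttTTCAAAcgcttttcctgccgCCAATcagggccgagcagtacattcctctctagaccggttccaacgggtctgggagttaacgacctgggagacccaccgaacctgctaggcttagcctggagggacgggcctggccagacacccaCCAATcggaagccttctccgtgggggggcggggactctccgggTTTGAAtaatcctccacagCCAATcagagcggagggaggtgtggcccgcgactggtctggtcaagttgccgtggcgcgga
H2afz, chr3:137864237-137864536, plus strand: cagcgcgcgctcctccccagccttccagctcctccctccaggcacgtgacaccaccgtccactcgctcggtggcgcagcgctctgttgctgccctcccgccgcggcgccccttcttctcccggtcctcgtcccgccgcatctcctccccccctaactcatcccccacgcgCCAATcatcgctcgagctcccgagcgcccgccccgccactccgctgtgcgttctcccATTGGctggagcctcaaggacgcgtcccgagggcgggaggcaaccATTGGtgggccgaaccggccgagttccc
Hmgn1, chr16:96127676-96127975, minus strand: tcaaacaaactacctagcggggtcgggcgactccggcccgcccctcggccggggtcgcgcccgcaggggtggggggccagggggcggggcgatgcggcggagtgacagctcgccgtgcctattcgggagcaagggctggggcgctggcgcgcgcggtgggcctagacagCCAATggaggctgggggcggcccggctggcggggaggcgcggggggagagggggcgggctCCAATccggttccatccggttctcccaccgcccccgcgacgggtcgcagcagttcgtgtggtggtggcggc
Hmga1, chr17:27556324-27556623, plus strand: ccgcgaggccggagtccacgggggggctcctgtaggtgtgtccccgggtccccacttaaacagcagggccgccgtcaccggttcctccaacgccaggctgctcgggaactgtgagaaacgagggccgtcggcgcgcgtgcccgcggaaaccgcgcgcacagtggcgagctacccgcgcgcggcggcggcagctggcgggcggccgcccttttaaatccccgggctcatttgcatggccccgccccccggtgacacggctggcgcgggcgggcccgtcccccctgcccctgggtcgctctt
TTTGAA was found in 2 of 8 genes, with 2 matches in Hmgb2 and 1 in Hmgb3, and in 17.9% of all windows. In Hmgb2 the matches closest to the start were a CCAAT at -11 and a TTTGAA at -30 (bases from the start), and the 2 boxes of Hmgn1 were at -21 and -81. The E2F-type sequence TTTNNCGC was in 0 of 8 genes and 5.17% of all windows, and the E-box CACGTG in 3 of 8 (a window of Hmgb1, Hmgn2 and H2afz) and 7.15%. These matches describe letters in the windows and not binding.

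To follow the genes through the cell cycle, each B-lineage cell was thinned to 1000 UMIs and classed by its UMIs of 30 S-phase and 30 G2/M genes, none of them among the 8 genes. Cells with at most 1 such UMI were called resting (867 cells), those with 4 or more dividing (757 cells: 375 S-gated and 382 G2/M-gated), and 286 between these limits were left out. Levels are given as CPM, the UMIs of a gene per 1000000 UMIs of a class in a library. Each molecule is counted once at its 3′ end, so levels of different genes can be compared without division by length. Tests are edgeR quasi-likelihood F tests of the summed counts with library as a term, adjusted by Benjamini-Hochberg over all genes tested.

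All 8 genes were higher in S-gated than in resting cells, and 7 of 8 in G2/M-gated than in resting cells. Across all 4496 genes tested, 26.8% were called higher and 25.6% lower in S-gated cells, and 18.6% higher and 17.4% lower in G2/M-gated cells. Hmgb2, Hmgn2 and H2afz stood between 7.27 and 9.60 times their resting level in each phase, Hmgb1 and Hmgb3 between 3.22 and 3.98 times, and Hmgn1, Hmgn5 and Hmga1 lower than that. Every gene was above its resting level in 5 of 5 libraries in S-gated cells and in 4 of 4 in G2/M-gated cells. Aged replicate 2 had only 6 G2/M-gated cells and entered no sum of them. The share of all genes above their resting level in every library was not counted. The calls were also made without young replicate 1: 8 genes higher in S-gated and 7 in G2/M-gated cells.

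**Figure D1:**
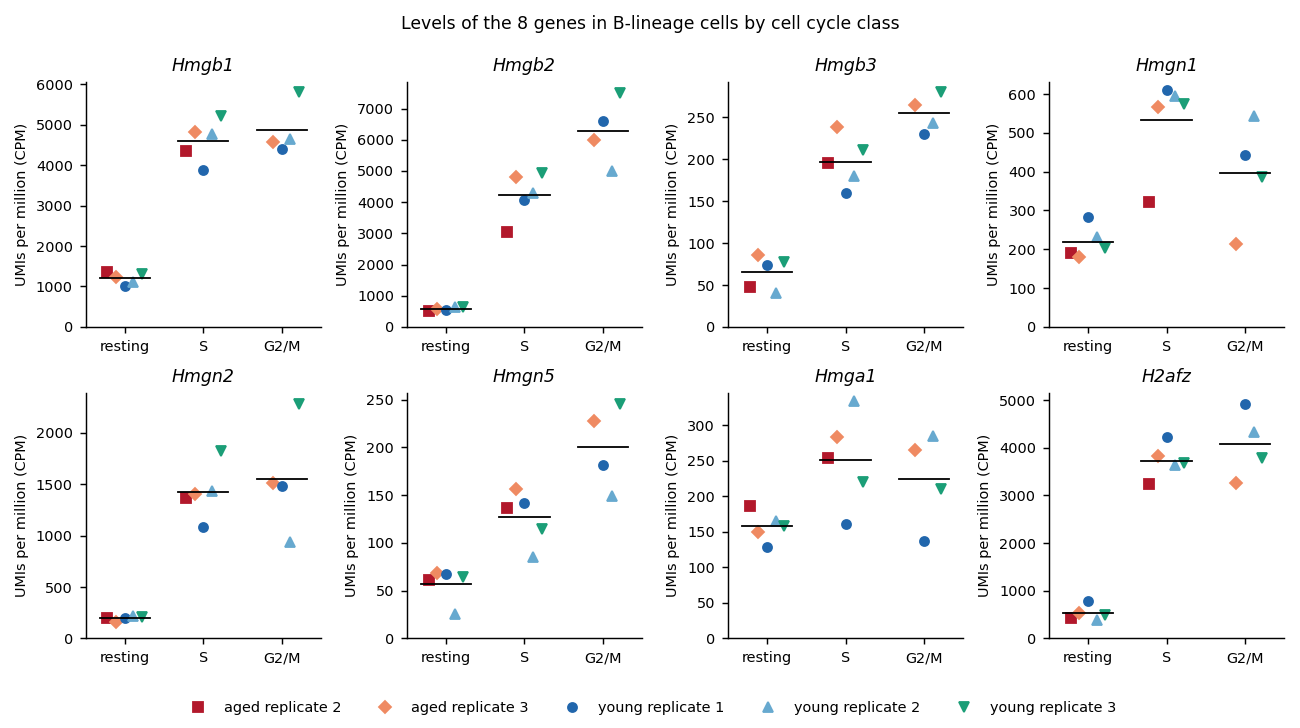
Level of each of the 8 genes (vertical axis, CPM) in resting, S-gated and G2/M-gated B-lineage cells, 1 symbol per library, with the mean of the libraries as a bar. All G2/M and S symbols of Hmgb1, Hmgb2, Hmgb3, Hmgn2, Hmgn5 and H2afz lie above all resting symbols, whereas the classes overlap for Hmgn1 and Hmga1. The share of all genes without overlap was not counted.

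Of the HMG-box genes, Hmgb1 and Hmgb2 were among the 3 most abundant of the set, with H2afz. In S-gated cells Hmgb2 was at 3027 and 4811 CPM in aged replicates 2 and 3 and at 4066, 4276 and 4940 CPM in young replicates 1 to 3, against 504 and 573 CPM in aged and 548, 632 and 627 CPM in young resting cells. G2/M-gated cells held 5982 CPM in aged replicate 3 and 6585, 5002 and 7506 CPM in the young libraries. No dividing class came near a resting value, and aged replicate 2 was the lowest in S. The fold changes over resting cells were 2.91 ± 0.11 (log2, SE) in S-gated cells (edgeR adjusted p = 1.65e-43) and 3.26 ± 0.12 in G2/M-gated cells (edgeR adjusted p = 4.39e-44).

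Hmgb1 was at 4355 and 4811 CPM in S-gated cells of the aged and at 3873, 4776 and 5214 CPM in those of the young libraries, against 1359 and 1227 CPM in aged and 1009, 1119 and 1320 CPM in young resting cells. Its resting level was thus the highest of the 8 genes in all 5 libraries. It rose by 1.99 ± 0.10 in S-gated (log2, SE; edgeR adjusted p = 6.99e-34) and 1.94 ± 0.11 in G2/M-gated cells (edgeR adjusted p = 1.8e-29). Hmgb3, the X-linked relative, was far lower: its mean was 65.1 ± 19.9 CPM in resting (SD, n = 5), 197 ± 30.1 CPM in S-gated (n = 5) and 255 ± 22.4 CPM in G2/M-gated cells (n = 4). Its folds were 1.69 ± 0.19 and 1.96 ± 0.22 (log2, SE; edgeR adjusted p = 5.58e-13 and 9.34e-13).

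H2afz was at 3232 and 3826 CPM in S-gated cells of the aged and 4234, 3644 and 3670 CPM of the young libraries, against 422 and 539 CPM in aged and 785, 391 and 487 CPM in young resting cells. The resting level of young replicate 1 was the highest of the 5. The rise was 2.93 ± 0.11 in S-gated (log2, SE; edgeR adjusted p = 5.82e-43) and 2.86 ± 0.12 in G2/M-gated cells (edgeR adjusted p = 2.1e-38).

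Among the nucleosome-binding HMGN genes, Hmgn2 changed most. S-gated cells had 1367 and 1410 CPM of Hmgn2 in the aged and 1085, 1434 and 1826 CPM in the young libraries, against 197 and 156 CPM in aged and 203, 213 and 213 CPM in young resting cells, a rise of 2.92 ± 0.13 (log2, SE; edgeR adjusted p = 1.14e-36). Its rise in G2/M-gated cells was 2.91 ± 0.15 (edgeR adjusted p = 9.2e-32). In resting cells Hmgn1 and Hmgn2 were at similar levels, with means of 218 ± 41.8 and 196 ± 23.8 CPM (SD, n = 5 each), while in S-gated cells they averaged 534 ± 119 and 1424 ± 265 CPM (SD, n = 5 each). Hmgn5 had 10 to 36 UMIs in the resting cells of a library, and averaged 57.3 ± 18.1 CPM in resting (SD, n = 5), 127 ± 27.8 CPM in S-gated (n = 5) and 201 ± 43.8 CPM in G2/M-gated cells (n = 4). It rose by 1.28 ± 0.21 in S-gated and 1.65 ± 0.24 in G2/M-gated cells (log2, SE; edgeR adjusted p = 1.36e-07 and 1.24e-08).

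Hmgn1 and Hmga1 had the smallest differences between G2/M-gated and resting cells. Hmgn1 was at 322 and 567 CPM in S-gated cells of the aged and 610, 595 and 573 CPM of the young libraries, against 190 and 180 CPM in aged and 284, 231 and 204 CPM in young resting cells. Its S-gated value in aged replicate 2 was above, but close to, the highest resting value. It rose by 1.34 ± 0.14 in S-gated (log2, SE; edgeR adjusted p = 2.67e-14) and by 0.70 ± 0.18 in G2/M-gated cells (edgeR adjusted p = 0.000758). Hmga1 was at 254 and 283 CPM in S-gated cells of the aged and 162, 335 and 221 CPM of the young libraries, against 187 and 150 CPM in aged and 129, 165 and 158 CPM in young resting cells. The value of young replicate 1 in S-gated cells lay below the highest resting value. Hmga1 rose by 0.75 ± 0.16 in S-gated cells (log2, SE; edgeR adjusted p = 2.66e-05), and its 0.44 ± 0.20 in G2/M-gated cells did not pass the test (edgeR adjusted p = 0.0718).

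**Figure D2:**
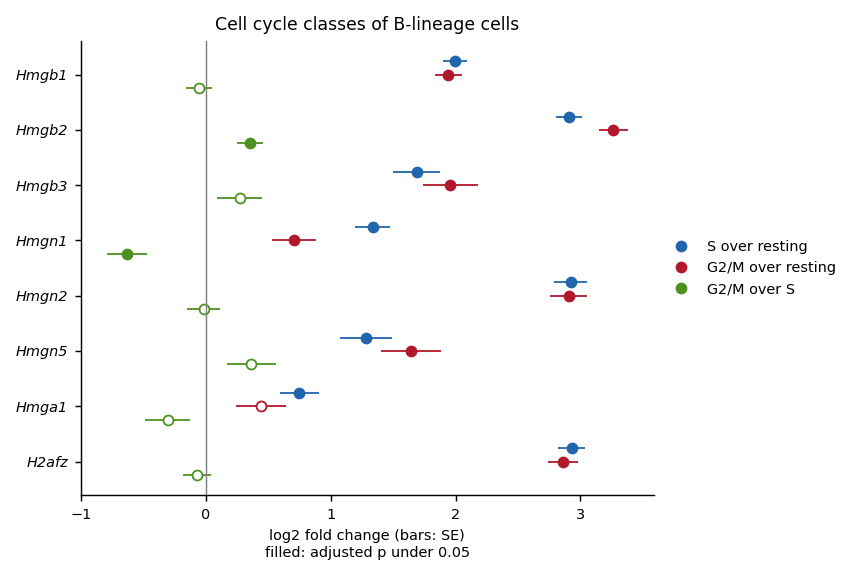
Fitted log2 fold changes (horizontal axis) of the 8 genes between cell cycle classes, with SE bars, filled where the adjusted p was under 0.05. The points over resting cells reach from 0.44 for Hmga1 to 3.26 for Hmgb2, and of the G2/M over S points those of Hmgb2, to the right of 0, and Hmgn1, to the left, are filled.

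Dividing cells also held more UMIs: over all libraries the median was 4360 UMIs in S-gated and 4019.5 UMIs in G2/M-gated cells, against 2216 UMIs in resting cells. Young replicate 1, the deepest library, gave 604 of the 757 dividing but 59 of the 867 resting cells. Its own medians were 4050.5, 4105 and 2264 UMIs in the same order, and those of young replicate 3 were 3942, 2105 and 1873 UMIs. The values per cell and the shares of cells that follow are pooled as well. Counted per cell, Hmgb2 averaged 28.6 UMIs in dividing and 1.38 UMIs in resting cells, H2afz 23.9 and 1.16 UMIs, Hmgb1 23.4 and 2.99 UMIs, and Hmgn2 7.27 and 0.464 UMIs. After thinning every cell to the same 1000 UMIs, H2afz was detected in 35.8% of resting, 94.7% of S-gated and 96.1% of G2/M-gated cells, and Hmgb2 in 37.8%, 93.6% and 96.1% of cells in the same order. Unthinned, 57.6% of resting cells held H2afz and 64.4% Hmgb2. Hmgn1 was found in 18.1% of resting, 40.5% of S-gated and 29.3% of G2/M-gated cells, and Hmga1 in 10.4%, 15.2% and 13.9%. The 22 endothelial-like cells (median 2255.5 UMIs) had H2afz in 40.9%, Hmgb1 in 63.6% and Hmgb2 in 13.6% of cells after thinning, and Hmgn1, Hmgb3 and Hmga1 in 0 of 22 cells, so at that depth up to 13.6% of such cells could hold a UMI. Unthinned, the same cells held 5 UMIs of Hmgn1, 1 of Hmgb3 and 0 of Hmga1. The resting shares of H2afz and Hmgb1 (67.2%) were thus close to those of another cell type, and no type lacking these genes was present to measure free RNA.

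Between the phases of division 2 of the 8 genes differed. In G2/M-gated over S-gated cells Hmgb2 was higher by 0.35 ± 0.11 (log2, SE; edgeR adjusted p = 0.0246), and Hmgn1 was lower, at -0.63 ± 0.16 (edgeR adjusted p = 0.00568). In this comparison 2.6% of all 4496 genes were called higher and 3.69% lower, 117 and 166 genes. With library totals in place of TMM factors the split was 184 higher and 91 lower, and the median of all genes was 0.11 on that scale and -0.02 with TMM (log2). Hmgb2 in G2/M-gated cells stood at 1.24 times its S-gated level in aged replicate 3 and at 1.62, 1.17 and 1.52 times in young replicates 1 to 3. The ratios of Hmgn1 were 0.378 in aged replicate 3, with 215 CPM in G2/M-gated and 567 CPM in S-gated cells, and 0.726, 0.911 and 0.673 in the young libraries. Both genes kept their direction in 4 of 4 libraries. Neither call held without young replicate 1 (Hmgb2 0.25, adjusted p = 0.377; Hmgn1 -0.68, adjusted p = 0.113) or without aged replicate 3 (Hmgb2 0.37, adjusted p = 0.107; Hmgn1 -0.49, adjusted p = 0.11), and that of Hmgb2 also not without aged replicate 2 (0.33, adjusted p = 0.0715), all in edgeR.

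The other 6 genes did not pass the test between G2/M and S. Hmgb3 (0.27 ± 0.18) and Hmgn5 (0.36 ± 0.20) were above their S-gated level in 4 of 4 libraries, by 1.11 to 1.44 times and 1.28 to 2.14 times, and Hmga1 (-0.31 ± 0.18) was below it in 4 of 4 at 0.846 to 0.954 times (log2, SE; edgeR adjusted p = 0.467, 0.324 and 0.384). Hmgb1, Hmgn2 and H2afz had fold changes of -0.05 ± 0.10, -0.02 ± 0.13 and -0.07 ± 0.11 (log2, SE). Against the total of each library these 3 were at 0.10, 0.14 and 0.08, so no direction can be given for them.

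Young replicate 1 was the only library with at least 20 dividing cells in each of 4 bins of the cycle, set by the share of G2/M genes among a cell's cycle UMIs (below 25%, to 50%, to 75% and above, with 96, 176, 187 and 145 cells). From the earliest to the latest bin Hmgb2 was at 3953, 4116, 5838 and 7816 CPM, with 95% exact Poisson intervals of 3774 to 4139 in the earliest and 7604 to 8031 in the latest bin. Hmgn1 ran the other way at 629, 602, 484 and 375 CPM (558 to 706 in the earliest and 330 to 425 in the latest bin). These intervals cover counting error alone. H2afz was at 4136, 4277, 4904 and 4935 CPM and Hmgb1 at 3777, 3916, 4405 and 4399 CPM over the same bins, so both were nearly level over the later 2. Hmgn2 was at 1118, 1070, 1352 and 1698 CPM and Hmgn5 at 141, 142, 150 and 232 CPM, highest in the latest bin. Hmga1 was highest in the second bin at 171 CPM and lowest in the latest at 121 CPM.

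The make-up of the 8 genes shifted with the phase. Together they made up 0.299% of all UMIs in resting, 1.45% in S-gated and 1.83% in G2/M-gated B-lineage cells. Hmgb1 took 41.7% of their UMIs in resting, 28.4% in S-gated and 24.5% in G2/M-gated cells, while Hmgb2 took 19.2%, 28.1% and 35.7% in the same order. H2afz held 16.2% in resting, 27.8% in S-gated and 26.3% in G2/M-gated cells. Young replicate 1 gave 604 of the 757 dividing but only 59 of the 867 resting cells, so the shares were also taken within that library: Hmgb2 took 17.7% in resting, 28.4% in S-gated and 35.8% in G2/M-gated cells, and H2afz 25.3%, 29.5% and 26.8%. Within that library the share of H2afz in resting cells was thus close to that in dividing cells, unlike in the pooled cells.

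The genes that place, move or resemble these proteins were read from 4 lists, of which the chaperone and HMG lists share Ssrp1 and the deposition and variant lists share H2afv. Of 22 histone chaperone genes tested, 19 were higher and 0 lower in S-gated than in resting cells (median 1.62, against -0.03 for all genes, log2). The count was the same, 19 of 22, without young replicate 1. They included Anp32b (2.94 ± 0.14), a nuclear acidic chaperone, Asf1b (6.18 ± 0.32), which hands new H3 and H4 to assembly factors, and Ptma (1.50 ± 0.09), prothymosin alpha, a partner of linker histone. Chaf1b of this list is also among the genes that set the S gate. In G2/M-gated over resting cells 19 of 22 were higher and 1 lower, and without young replicate 1 this was 13 and 1. In G2/M-gated over S-gated cells 0 were higher and 5 lower, among them Npm1 (-0.49 ± 0.13), nucleophosmin, and Nasp (-0.59 ± 0.17), a carrier of H3 and H4.

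Of 16 tested genes for H2A.Z deposition and removal, 6 were higher and 2 lower in S-gated than in resting cells, and 7 higher and 2 lower in G2/M-gated than in resting cells. Without young replicate 1 these counts were 6 and 2, and 2 and 1, of 15 tested. H2afv, the second H2A.Z gene, rose by 2.01 ± 0.12 in S-gated and 2.24 ± 0.13 in G2/M-gated cells (log2, SE; edgeR adjusted p = 4.43e-29 and 5.63e-28). Anp32e, the H2A.Z remover, rose by 2.21 ± 0.14 and 2.46 ± 0.16 (edgeR adjusted p = 3.91e-27 and 2.09e-25), and Ruvbl1, an ATPase shared by the depositing complexes, by 1.35 ± 0.25 and 1.18 ± 0.30. Srcap, the catalytic subunit of a depositing complex, was at -0.04 ± 0.39 in S-gated cells and did not pass the test. Between G2/M-gated and S-gated cells edgeR called 0 of the 16, with 2 at an unadjusted p under 0.05.

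Of 10 tested histone variant genes outside the set, 6 were higher and 2 lower in S-gated than in resting cells, and 6 higher and 0 lower in G2/M-gated cells. H2afx, the variant phosphorylated at DNA breaks, rose by 3.25 ± 0.17 in S-gated and 4.03 ± 0.19 in G2/M-gated cells, and the linker histone gene Hist1h1c fell by 1.06 ± 0.15 on the log2 scale in S-gated cells (SE). In G2/M-gated over S-gated cells 4 of the 10 were higher, among them Hist1h1c (1.01 ± 0.17), Hist1h2bc (1.04 ± 0.18) and Cenpa, the centromeric H3, which is a gene of the G2/M gate. This last count was 2 without young replicate 1. Of 13 other HMG-box and related genes tested, 4 were higher and 2 lower in S-gated cells, and 3 higher and 2 lower in G2/M-gated than in resting cells. Without young replicate 1 these counts were 1 and 3, and 0 and 2. Ssrp1, the HMG-box subunit of the FACT complex, rose by 1.63 ± 0.15 in S-gated cells, while the HMG-box transcription factors Sox4 and Lef1 fell by 1.43 ± 0.13 and 0.75 ± 0.16 (log2, SE).

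Over 24 sums of library and class, the genes with the pattern most like Hmgb2 were Spc24, Pbk and Nusap1 (Pearson r of 0.973, 0.968 and 0.966 on log2 CPM with 10 added), all known for mitosis. Those most like H2afz were Ccna2, Tuba1b and Pclaf (0.962 for each of the 3), and those most like Hmgb1 were Ptma, Spc24 and Birc5 (0.972, 0.968 and 0.965). The sums share libraries and differ mainly in phase, and Nusap1, Ccna2 and Birc5 belong to the G2/M gate. Hmgb3 was closest to H2afx (0.913), Hmgn2 to Hnrnpa2b1 (0.925), Hmgn5 to Hint1 (0.851), Hmgn1 to Myl4 (0.799) and Hmga1 to Ppm1d (0.790), among 3120 genes. Among the 8 genes, the closest pair was Hmgb1 and Hmgb2 (0.950), followed by Hmgb2 and H2afz (0.946), and Hmgn1 and Hmgb3 were the least alike (0.243).

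Resting cells were then placed along B-cell development by marker transcripts. Cells with surrogate light chain or Dntt transcripts, as in pro-B cells, numbered 289. Those with Cd2 or Ms4a1, as in small pre-B cells, numbered 235, and those with MHC class II, as in immature B cells, 121. A gate on Rag1 or Rag2 alone took 38 cells, and 10 or more in a single library only (15 in aged replicate 2), so it entered no test; there Hmgb1 was at 1432 CPM, Hmgb2 at 318 CPM and H2afz at 557 CPM. Aged replicate 2 had 8 MHC-II-positive cells and is not in that class.

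Hmgn1 rose with stage. Cd2/Ms4a1-positive cells had 269 and 276 CPM of Hmgn1 in the aged and 368, 238 and 299 CPM in the young libraries, against 167 and 112 CPM in surrogate-light-chain-positive cells of the aged and 147, 142 and 81.5 CPM of the young libraries. The lowest value of the later class was above the highest of the earlier class. The share of all tested genes separated in this way was not counted. The values rest on 135 and 108 UMIs in all. The difference was 1.13 ± 0.22 (log2, SE; edgeR adjusted p = 8.67e-05), at 1.61 to 3.66 times in 5 of 5 libraries. MHC-II-positive cells had 189 CPM in aged replicate 3 and 555, 255 and 392 CPM in the young libraries, 1.37 ± 0.26 above surrogate-light-chain-positive cells (log2, SE; edgeR adjusted p = 0.000109), with 4 of 4 libraries higher. Between MHC-II-positive and Cd2/Ms4a1-positive cells Hmgn1 did not pass the test (0.24 ± 0.24, edgeR adjusted p = 0.749). Pooled over libraries, the cycle genes left in these resting cells averaged 0.533 UMIs per 1000 in surrogate-light-chain-positive, 0.434 in Cd2/Ms4a1-positive and 0.421 in MHC-II-positive cells. In young replicate 3 they did not fall with stage, at 0.468, 0.487 and 0.474 in the same order. In every other library the surrogate-light-chain-positive mean was above the Cd2/Ms4a1-positive mean. Their part in the Hmgn1 values was not tested.

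**Figure D3:**
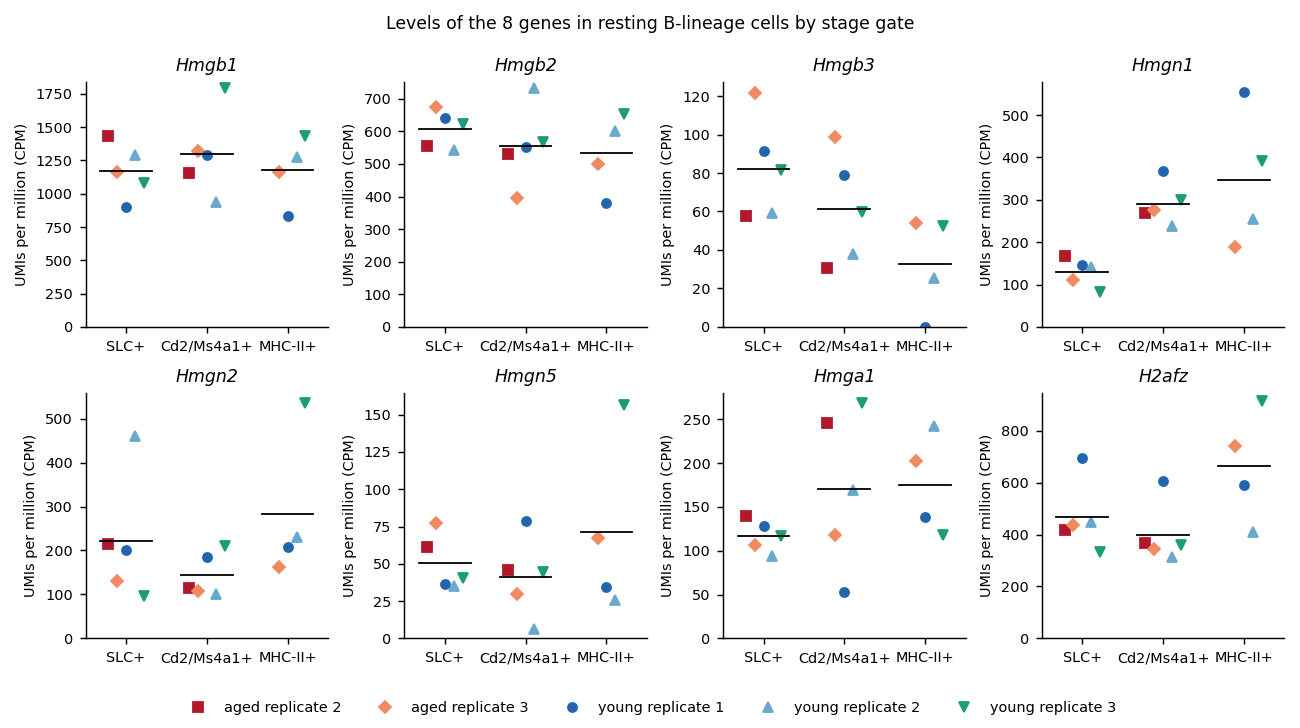
Level of each of the 8 genes (vertical axis, CPM) in resting B-lineage cells of 3 stage gates: surrogate light chain or Dntt (SLC+), Cd2 or Ms4a1, and MHC class II, with 1 symbol per library and the mean as a bar. For Hmgn1 the Cd2/Ms4a1 symbols, from 238 to 368, all lie above the SLC+ symbols, from 81.5 to 167, while the symbols of Hmgb1 and Hmgb2 overlap in all 3 gates.

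Of the 2158 genes tested between Cd2/Ms4a1-positive and surrogate-light-chain-positive cells, 15.3% were called higher and 14.1% lower, and of the 6 genes of the set that passed the filter on low counts, 1 was called. Between MHC-II-positive and surrogate-light-chain-positive cells 9.87% were called higher and 10.6% lower, with 2 of 6 of the set, and between MHC-II-positive and Cd2/Ms4a1-positive cells 0.649% and 0.324%, with 1 of 6. Hmgb3 and Hmgn5 were too low to be tested. Hmgb3 in Cd2/Ms4a1-positive cells was at 0.531 to 0.860 times its level in surrogate-light-chain-positive cells, below 1 in 5 of 5 libraries. MHC-II-positive cells held 11 UMIs of it in all, with 0 in the 13 cells of young replicate 1, which allows up to 104 CPM.

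H2afz was higher in MHC-II-positive cells, at 743 CPM in aged replicate 3 and 589, 408 and 914 CPM in the young libraries, against 369 and 345 CPM in Cd2/Ms4a1-positive cells of the aged and 605, 314 and 359 CPM of the young libraries. In young replicate 1 the ratio was 0.975, and in the other 3 it was above 1. The difference of 0.82 ± 0.21 (log2, SE; edgeR adjusted p = 0.0492) fell short of the threshold without aged replicate 2 (adjusted p = 0.0706), aged replicate 3 (adjusted p = 0.429) or young replicate 3 (adjusted p = 0.378), and in DESeq2 (adjusted p = 0.118). Against surrogate-light-chain-positive cells the difference was 0.63 ± 0.20 (edgeR adjusted p = 0.0214). The ratio was above 1 in 2 of 4 libraries, and the difference was 0.28 without young replicate 3 (adjusted p = 0.5) and 0.54 without aged replicate 3 (adjusted p = 0.191).

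The other genes did not pass the test between stages. Hmgb1 differed by 0.09 ± 0.13 and Hmgb2 by -0.13 ± 0.16 between Cd2/Ms4a1-positive and surrogate-light-chain-positive cells, Hmga1 by 0.62 ± 0.25 and Hmgn2 by -0.64 ± 0.32 (log2, SE; edgeR adjusted p = 0.637, 0.595, 0.0558 and 0.141). Hmgn2 in MHC-II-positive cells was above its Cd2/Ms4a1-positive level in 4 of 4 libraries, at 1.13 to 2.56 times, and missed the threshold (1.21 ± 0.37, edgeR adjusted p = 0.12).

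Of the related lists, the other HMG genes were called in 1 of 8 tested upwards and 2 downwards in Cd2/Ms4a1-positive over surrogate-light-chain-positive cells. Lef1, a factor of early B-cell precursors, was at -2.85 ± 0.21, Hmgn3, a further HMGN gene, at -1.0 ± 0.37 (adjusted p = 0.0391), and Sox4 at 0.74 ± 0.14. Of 9 histone variants 3 were higher and 1 lower: the linker histone gene Hist1h1c at 1.92 ± 0.20 and H3f3b, a gene of H3.3, at 0.63 ± 0.08 were higher, and H1f0, another linker histone, at -1.43 ± 0.32 was lower (all log2, SE, edgeR). Of 11 chaperones 1 was higher and 3 lower, and 0 of 8 H2A.Z deposition and removal genes were called, with 0 at an unadjusted p under 0.05. Without young replicate 1 the counts higher and lower were 1 and 1 of 9 other HMG genes, 3 and 2 of 9 variants, 1 and 2 of 14 chaperones and 0 of 9 deposition and removal genes. In MHC-II-positive over Cd2/Ms4a1-positive cells edgeR called 0 of 8 other HMG genes, 0 of 8 deposition and removal genes and 0 of 11 chaperones, with 1, 0 and 3 at an unadjusted p under 0.05, and 1 of 9 variants, H3f3b, which was lower (-0.36 ± 0.09). In MHC-II-positive over surrogate-light-chain-positive cells 2 other HMG genes were higher and 1 lower, 1 deposition gene (Yeats4, 0.79 ± 0.25) was higher, 1 chaperone was lower, and 2 variants were higher and 2 lower. With young replicate 1 left out, MHC-II-positive over Cd2/Ms4a1-positive cells gave 0 calls in the 4 lists, and the call of H3f3b was lost. MHC-II-positive over surrogate-light-chain-positive cells then had 0 of 9 other HMG genes higher and 1 lower, 0 of 9 deposition and removal genes (Yeats4 was no longer called), 1 of 14 chaperones lower, and 2 of 9 variants higher and 2 lower.

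Dividing cells with surrogate light chain or Dntt transcripts (125) could be compared with the other 632 dividing cells in 4 libraries, since young replicate 2 had only 4. Hmgb2 was at 2798 and 5064 CPM in the surrogate-light-chain-positive cells of the aged and at 3152 and 3768 CPM in those of young replicates 1 and 3, against 4993 and 5302 CPM in the other dividing cells of the aged and 6096 and 6592 CPM of the young libraries. It was lower in 4 of 4 libraries, at 0.517 to 0.955 times, and missed the threshold at -0.62 ± 0.20 (log2, SE; edgeR adjusted p = 0.061). In edgeR 0 of the 8 genes were called, although 2 had an unadjusted p under 0.05, and 1 was called in DESeq2. Of 4008 genes tested 2.67% were called higher and 1.9% lower, a split of 107 and 76 that became 87 and 141 with library totals as the scale, where the median of all genes was -0.10 and not 0.01 (log2). Without aged replicate 3 the calls were 280 and 176 with 3 of the 8 genes among them, and without young replicate 1 they were 11 and 13. Among the lists, 1 of 12 other HMG genes was higher (Lef1, 1.38 ± 0.24), 1 of 18 deposition and removal genes was higher and 1 lower, 1 of 22 chaperones was higher (Npm1, 0.93 ± 0.22) and 5 of 10 variants were lower. They gave, without young replicate 1, 1 of 8 higher, 0 of 10, 0 of 21 and 1 of 10 lower. The 30 G2/M genes averaged 2.81 and 6.09 of 1000 UMIs in the surrogate-light-chain-positive cells of the aged and 5.70 and 3.33 in those of young replicates 1 and 3, against 5.73 and 5.56 in the other dividing cells of the aged and 8.89 and 5.46 of the young libraries. The phase mix was not a term of the fit, and its part in the Hmgb2 values was not tested.

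The myeloid cells allow a look at the same genes in another lineage, within young replicate 1 alone, so these values have no replicate test. It held 110 dividing and 17 resting myeloid cells. All 8 genes had a lower CPM in dividing myeloid than in dividing B-lineage cells of that library. The share of all genes lower in this way was not counted. The myeloid cluster was deeper, with a median of 9535 UMIs over all its cells, against 4092 UMIs in dividing B-lineage cells of young replicate 1. CPM compares shares of the UMIs, so counts per cell can have another order. H2afz was at 2484 CPM in dividing myeloid cells (95% exact Poisson interval 2401 to 2569), against 4602 CPM in dividing B-lineage cells, a ratio of 0.540. Hmgb2 was at 1928 CPM (1855 to 2004), against 5426 CPM, a ratio of 0.355, and Hmgb1 at 1431 CPM (1368 to 1495), against 4159 CPM, a ratio of 0.344. Hmgn2 had 688 CPM, against 1300 CPM in dividing B-lineage cells. The ratios of the 8 genes ran between 0.337 for Hmgn1 and 0.549 for Hmgn5.

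The ratio of dividing to resting levels was closer to 1 in the myeloid cluster for the 4 most abundant genes. Hmgb2 was at 1.98 times, Hmgn2 at 1.81, Hmgb1 at 1.49 and H2afz at 1.42 times its resting myeloid level, where the B-lineage cells of the same library had ratios of 9.89, 6.40, 4.12 and 5.86. The other 4 genes were at 1.10 (Hmga1), 1.08 (Hmgn1), 0.900 (Hmgn5) and 0.738 times (Hmgb3) their resting level, within wide counting intervals at rest, such as 43.3 to 166 CPM for Hmgb3. Resting myeloid cells had 1753 CPM of H2afz (1515 to 2018), against 785 CPM in resting B-lineage cells. The 8 genes together took 0.693% of UMIs in dividing and 0.448% in resting myeloid cells, against 1.65% in dividing and 0.310% in resting B-lineage cells. H2afz was the most abundant of the 8 genes in both myeloid classes, with 35.8% of their UMIs in dividing and 39.1% in resting cells. Within dividing myeloid cells Hmgb2 in G2/M-gated cells was at 1.37 times and Hmgn1 at 0.768 times the S-gated level, the same directions as in the B lineage. None of the 8 B-lineage markers was at 0 in the dividing myeloid cells, and their part in these levels was not tested.

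Dividing and resting myeloid cells were spread differently over the 7 clusters found within them. The cluster led by bone matrix and basophil transcripts held 16 of 110 dividing and 6 of 17 resting cells. Within it Hmgb2 was at 3.20 times its resting level, H2afz at 2.17, Hmgb1 at 1.55 and Hmgn2 at 1.24 times, on 12, 28, 19 and 7 UMIs at rest. In the other 6 clusters together (94 dividing and 11 resting cells) the ratios were 1.77 for Hmgb2, 1.30 for H2afz, 1.45 for Hmgb1 and 1.78 for Hmgn2. These 8 ratios were below those of the B-lineage cells of that library.

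**Figure D4:**
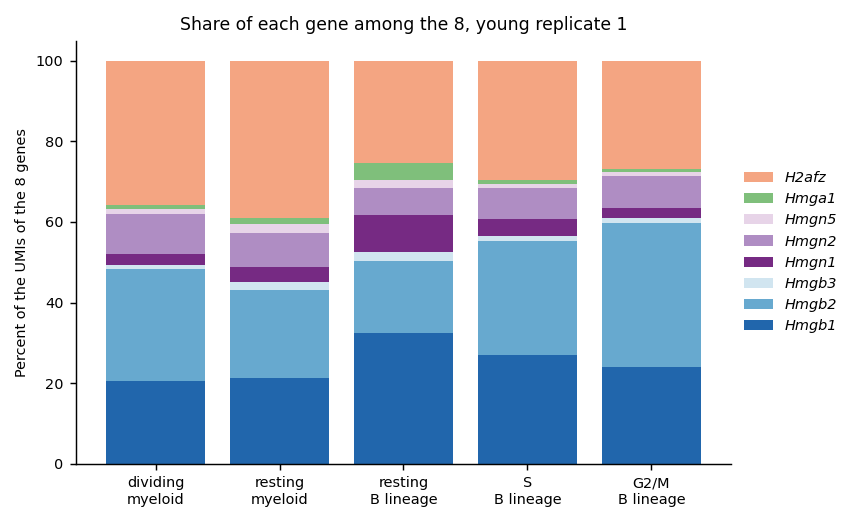
Share of each gene among the UMIs of the 8 genes (vertical axis, percent) in dividing and resting myeloid cells and in resting, S-gated and G2/M-gated B-lineage cells of young replicate 1. H2afz is the widest band in both myeloid bars (35.8% and 39.1%), and the Hmgb2 band is 35.8% in G2/M-gated B-lineage cells, against 17.7% in resting ones.

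Dividing cells of young replicate 1 differed in Hmgn2 between the clusters found among all 181 myeloid cells. Markers and leading genes are those of whole clusters, in all phases and libraries. Median depth ran from 5630 to 17126 UMIs over the clusters, and its part in these values was not tested. The neutrophil-like cluster, 20 cells with 17 of young replicate 1, was led by S100a8 and S100a9. It carried 7 of 7 neutrophil and 5 of 5 neutrophil precursor markers, and Elane, Ms4a3 and Ctsg were also among its leading genes. In 14 dividing cells of it Hmgn2 was at 1150 CPM (95% exact Poisson interval 1023 to 1288). Hmgn2 was at 747 CPM in 11 cells led by the granule genes Elane and Mpo and at 623 CPM in 28 monocyte-like cells led by Lyz2 and Ly6c2. In 16 cells led by bone matrix and basophil transcripts it was at 364 CPM (263 to 490). The 3 other clusters, of 17 cells led by Cst3, 14 led by Cxcl2 and 10 led by Flt3, had 603, 508 and 460 CPM. Hmgn1 was lowest in the neutrophil-like cells, at 73.3 CPM (44.1 to 114), and highest in the Flt3-led and Cst3-led cells, at 311 CPM (208 to 446) and 310 CPM (218 to 427), whose intervals overlap those of the Cxcl2-led cells (243 CPM) and of the bone matrix and basophil cells (237 CPM, 157 to 342). Hmgb2 was highest in the monocyte-like cells at 2524 CPM (2372 to 2683). The intervals cover counting error in 1 library.

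The series compares aged with young mice, and 0 of the 8 genes passed the edgeR test for age in resting cells or in dividing cells. At an unadjusted p under 0.05 there were 0 of 8 in both classes, and DESeq2 called 0 as well. In resting cells 0% of 5660 genes were called higher and 0% lower by edgeR. An unadjusted p under 0.05 was reached by 115, and DESeq2 called 0. In dividing cells 0.0249% of 4020 genes were called higher, which is 1 gene, and 0% lower. An unadjusted p under 0.05 was reached by 172, and DESeq2 called 1. The aged libraries have 2 replicates, which limits what could be detected.

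Hmgn1 had the largest age difference of the 8 genes in both classes. Dividing cells had 328 and 436 CPM in the aged libraries, against 520, 580 and 536 CPM in the young ones, and resting cells had 190 and 180 CPM in the aged libraries, against 284, 231 and 204 CPM in the young ones. The groups did not overlap in either class. With so few libraries per group, such a separation can arise by chance, here and for H2afz below. The share of all genes separated in this way was not counted, so no age effect is read from it. The fold changes were -0.58 ± 0.29 in dividing and -0.41 ± 0.27 in resting cells (log2, SE; edgeR adjusted p = 0.998 and 1). H2afz had 3415 and 3615 CPM in dividing cells of the aged libraries, against 4602, 3839 and 3694 CPM in those of the young ones, which did not overlap either, whereas its resting values did. Its fold changes were -0.28 ± 0.30 in dividing and -0.25 ± 0.33 in resting cells, and those of Hmgb2 -0.28 ± 0.31 and -0.22 ± 0.27, with overlapping groups in both classes. Hmgb1 was at -0.09 ± 0.29 in dividing and 0.10 ± 0.27 in resting cells, Hmgb3 at 0.08 ± 0.29 and 0.01 ± 0.38, and Hmga1 at 0.20 ± 0.32 and 0.08 ± 0.27. Hmgn2 was at -0.13 ± 0.30 and -0.32 ± 0.26 and Hmgn5 at 0.19 ± 0.33 and 0.31 ± 0.39 in dividing and resting cells.

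**Figure D5:**
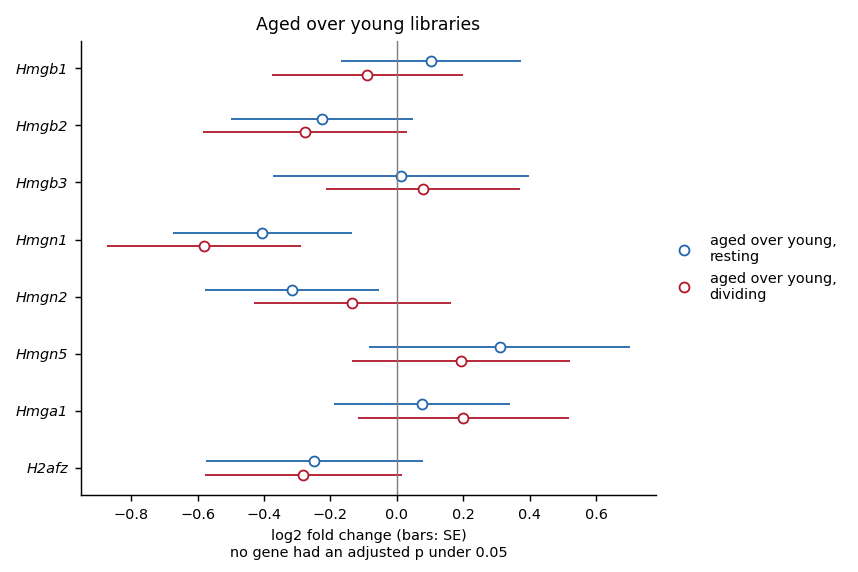
Fitted log2 fold change of the 8 genes in aged over young libraries (horizontal axis, SE bars), for resting (blue) and dividing (red) B-lineage cells; no point had an adjusted p under 0.05. The points lie between -0.58 for Hmgn1 in dividing cells and 0.31 for Hmgn5 in resting cells.

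The phase mix moved with the libraries: 16.7% and 40.4% of dividing cells were G2/M-gated in aged replicates 2 and 3, against 55.0%, 40.6% and 31.6% in young replicates 1 to 3. Surrogate-light-chain-positive cells numbered 94 of 200 and 77 of 263 resting cells in the aged libraries, against 20 of 59, 19 of 136 and 79 of 209 in the young ones. The part of either in the age values was not tested. Neutrophil-precursor transcripts, a sum of 5 markers, were at 1.74 and 17.1 CPM in resting B-lineage cells of the aged libraries, against 230 CPM in young replicate 1 and 2.54 and 6.86 CPM in young replicates 2 and 3. A sum of 7 neutrophil markers had another order in these cells. It was at 10.5 and 98.6 CPM in aged replicates 2 and 3, and at 27.1, 0 and 195 CPM in young replicates 1 to 3.

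Whether the rise on division itself differed with age was tested with a product term. In edgeR 0 of the 8 genes were called, 0 had an unadjusted p under 0.05, and DESeq2 called 0. The differences ran from -0.21 ± 0.15 for Hmgb1 to 0.17 ± 0.23 for Hmgn2 (log2, SE). Of 5713 genes 0.035% were called higher, which is 2 genes, and 0% lower. The 4 lists gave 0 calls by age in resting cells in edgeR, with 0 genes at an unadjusted p under 0.05, and 0 in dividing cells and for the product term apart from 1 gene, H1f0, a linker histone gene of the histone variant list, at 2.66 ± 0.44 in dividing cells (log2, SE; edgeR adjusted p = 0.0281) and 2.29 ± 0.46 for the product term (edgeR adjusted p = 0.00613). The call in dividing cells was absent without young replicate 1 or aged replicate 2, with haemoglobin-high cells kept, with the stricter cycle gate and in the fit blocked by replicate number, where 0 genes were called higher. That of the product term was absent in DESeq2, with no filter on low counts and with the stricter cycle gate, where 0 genes were called higher as well.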

How the data were processed

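Whole-number UMI counts per gene and cell barcode were deposited, 1 table per library, made by the authors with Cell Ranger on mm10 per the submitters' processing notes, which also name R 3.5.2, edgeR 3.24.3 and DESeq2 1.22.2 without a role. The number of PCR cycles was set per library, per the labels' protocols. The rule that chose the 3384 barcodes is not given in the sources used here. Cells with at least 500 genes, at least 1000 UMIs and at most 10% mitochondrial UMIs were kept. They numbered 282 and 402 in the aged and 890, 226 and 316 in the young libraries. Symbols matched 27645 of 27998 gene identifiers.

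Cells were clustered without the 8 genes (scanpy 1.11.5, 2000 variable genes, 30 components, 15 neighbours, leidenalg 0.10.2 at resolution 0.8) and classes were named from marker lists. From the B lineage 3 cells with 10% or more haemoglobin UMIs were left out, a choice made after seeing the data. Scrublet marked 49 cells, which were kept in the main values and left out in an alternative. Of the dividing cells, 49 had 4 or 5 cycle UMIs and 207 a G2/M share between 0.4 and 0.6, near the limits. Stage gates on thinned counts were taken in order: at least 4 MHC-II UMIs, at least 2 surrogate light chain or Dntt UMIs, at least 1 of Cd2 or Ms4a1, and at least 1 of Rag1 or Rag2; 184 resting cells had none.

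Counts were summed per library and class with at least 10 cells and tested with edgeR 4.0.16 (TMM, filterByExpr, quasi-likelihood F test, Benjamini-Hochberg over all genes, threshold 0.05) in R 4.3.3, with library as a term except for age. The SE is the size of the log2 fold change divided by the root of F. DESeq2 1.42.0 and the settings of the closing section were alternatives. The fits were first run on simulated counts. These were drawn from a single mean profile without library effects, so they do not measure how the fits treat differences between libraries. The planned Rag-gate tests had too few cells. The comparison of Cd2/Ms4a1-positive with surrogate-light-chain-positive cells and the product term were added after seeing the data.

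All 8 genes are described in each comparison. From each list the counts are given, with at most the 3 genes of smallest p beside some singled out for their role after their values were seen (Srcap, Chaf1b). Likeness is given as Pearson r over genes of at least 50 CPM. The genes and lists were chosen with earlier results of these data known.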

Additional observations from a re-analysis of the deposited data

How the results depend on the processing

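Over 15 alternative settings, 725 of 812 values of single genes kept their direction and side of the threshold, and 252 of 335 counts and class levels stayed close to the main one (counts within 3/2 of it). Every call over resting cells held in 12 of 12 settings, in S-gated and G2/M-gated cells. The Hmgn1 calls between stages held in 10 of 10 settings, at edgeR or DESeq2 adjusted p of 3.91e-05 to 0.00294 for Cd2/Ms4a1-positive and 5.29e-05 to 0.0139 for MHC-II-positive over surrogate-light-chain-positive cells. Between G2/M-gated and S-gated cells the call of Hmgb2 held in 6 of 11 settings and that of Hmgn1 in 8 of 11. H2afz in MHC-II-positive cells held in 4 of 10 settings against Cd2/Ms4a1-positive and 5 of 10 against surrogate-light-chain-positive cells. Clusters at resolution 1.2 gave the same dividing myeloid levels. The planned Rag-gate comparisons were not run, since 1 library had enough cells. Few UMIs limit Hmgb3 and Hmgn5 at rest, and 2 aged libraries limit every age value. The cause was not tested for any change below.

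In G2/M-gated over resting cells the genes called lower numbered 501 without the library term and 502 with the stricter cycle gate, and leaving out a library gave 477 to 857 higher and 405 to 725 lower. In G2/M-gated over S-gated cells the genes called higher were 52 in DESeq2, 70 with no filter on low counts, 184 with total scaling, 17 without the library term and 59 with the stricter gate. Those called lower were 91 with total scaling, 12 without the library term and 55 with the stricter gate, and of the 8 genes 1 was called with no filter and 0 without the library term. Signs turned for Hmgb1 (0.10), Hmgn2 (0.14) and H2afz (0.081) with total scaling, for Hmgn2 (0.0039) and H2afz (0.033) without the library term, and for Hmgn2 without doublets (0.0021) or with the stricter gate (0.19). Leaving out a library gave 31 to 130 higher, 93 to 147 lower, 0 to 2 of the 8 genes, and -0.19 to 0.16 for Hmgn2. The lowest counts, 31 and 93, were those without young replicate 1.

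In Cd2/Ms4a1-positive over surrogate-light-chain-positive cells the genes called higher were 212 in DESeq2 and 190 without the library term, and those called lower 476 with no filter and 153 without the library term. Leaving out a library gave 1 to 2 of the 8 genes, -0.34 to 0.043 for Hmgb2 and -0.086 to 0.24 for Hmgb1. In MHC-II-positive over Cd2/Ms4a1-positive cells the genes called lower were 1 in DESeq2 and 0 without the library term, and those called higher 5 without it. Of the 8 genes 0 were called in DESeq2, without doublets or without the library term, and 2 with no filter, and Hmga1 was -0.0064 without the library term. With a library left out there were 7 to 19 higher, 1 to 8 lower, 0 to 1 of the 8 genes, -0.16 to 0.095 for Hmgb1, -0.074 to 0.55 for Hmga1 and -0.14 to 0.088 for Hmgb2. In MHC-II-positive over surrogate-light-chain-positive cells 1 of the 8 genes was called in DESeq2, with no filter and without the library term, where 116 genes were higher and 123 lower. With a library left out there were 135 to 231 higher, 143 to 223 lower, 1 to 3 of the 8 genes, -0.041 to 0.17 for Hmgb1 and -0.30 to 1.12 for Hmgn2.

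In surrogate-light-chain-positive over other dividing cells DESeq2 called 18 genes higher, 22 lower and 1 of the 8. Total scaling called 141 lower and 2 of the 8, and without the library term 8 were higher and 7 lower. Hmgn5 turned to -0.0041 with no filter and -0.080 with total scaling. Leaving out a library gave 11 to 280 higher, 13 to 176 lower, 0 to 3 of the 8 genes, -0.077 to 0.072 for Hmgn5 and -0.37 to 0.10 for Hmgb3.

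Aged over young resting cells gave 1 gene higher and 4 lower with no filter, and Hmgb3 was -0.0091 in DESeq2 and -0.0054 without doublets. Leaving out a library gave 0 to 1 higher, 0 to 5 lower, -0.038 to 0.19 for Hmga1, -0.52 to 0.42 for Hmgb3, -0.48 to 0.076 for H2afz and -0.11 to 0.69 for Hmgn5. In dividing cells 5 genes were higher and 3 lower with no filter, and 0 were higher with the stricter gate or with haemoglobin-high cells kept. Leaving out a library gave 0 to 1 higher, -0.091 to 0.23 for Hmgb3, -0.071 to 0.51 for Hmga1 and -0.25 to 0.058 for Hmgn2. For the product term of age and division 0 genes were higher in DESeq2, with no filter or with the stricter gate, and 1 with total scaling. Hmgb3 turned to -0.038 and Hmga1 to -0.054 with no filter, Hmgn5 to 0.062 without doublets, and Hmgb3 to -0.048, Hmgn2 to -0.052 and Hmgn5 to 0.23 with the stricter gate. With a library left out there were 1 to 3 higher, 0 to 1 lower, -0.28 to 0.12 for Hmgb2, -0.22 to 0.35 for Hmgb3, -0.48 to 0.049 for Hmgn1, -0.049 to 0.37 for Hmgn2, -0.22 to 0.27 for Hmga1, -0.21 to 0.096 for H2afz and -0.29 to 0.16 for Hmgn5.

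Replicate numbers 2 and 3 occur in both age groups. Deviations from the group means of same-numbered libraries correlated at 0.307 over 5705 genes in resting and 0.182 over 3610 genes in dividing cells, across genes of 2 pairs, and the labels do not say what a number means, so the numbers were not taken as pairs. With the replicate number as a block (replicate block) 0 genes were called higher in dividing cells, and H2afz was 0.078 in resting and Hmga1 -0.067 in dividing cells.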

Other observations

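The labels used here give no sex. Both replicate 2 libraries held 0 Xist UMIs, with 282 Y-linked UMIs in the aged and 220 in the young library, whereas the other 3 libraries held 1106 to 6258 Xist UMIs and 0 to 1 Y-linked UMIs. The 2 X-linked genes of the set were lowest at rest in these replicate 2 libraries. Hmgb3 was at 47.1 CPM in aged and 40.6 CPM in young replicate 2, against 85.4 CPM in aged replicate 3 and 74.5 and 77.8 CPM in young replicates 1 and 3. Hmgn5 was at 61.0 CPM in aged and 25.4 CPM in young replicate 2, against 68.3 CPM in aged replicate 3 and 67.7 and 64.1 CPM in young replicates 1 and 3. Each of these values rests on 10 to 45 UMIs. In S-gated cells both genes overlapped, with 195 and 181 CPM of Hmgb3 in the replicate 2 libraries and 160 to 239 CPM in the others. H2afz, which is not X-linked, was also lowest at rest in the replicate 2 libraries, so the split was not particular to the X-linked genes. The share of all genes with such a split was not counted. The split was noticed in the data and was not tested.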
